A study of Mus musculus with 18 samples.

Results

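The transcriptional response of mouse macrophages to interferon gamma (IFN-gamma) was compared between cells knocked out for Ldha (KO) and wild-type (WT) cells, gene by gene. For each gene, the response was the log2 difference between cells given IFN-gamma and untreated cells of one genotype, and the quantity described here is the response in KO minus the response in WT. The members were chosen by sample: 12 of the 18 libraries of the series enter it, and 14288 of 21380 gene identifiers passed the filter on low values and were tested. The 4 groups, of 3 libraries each, were KO cells with IFN-gamma, untreated KO cells, WT cells with IFN-gamma and untreated WT cells. All were primary bone marrow-derived macrophages, grown from femoral marrow for 7 days in serum-containing medium with 30 ng/mL macrophage colony-stimulating factor, and IFN-gamma was given for 24 h. Each of the 3 KO and 3 WT animals gave 1 library with IFN-gamma and 1 untreated, so every response can also be read within an animal. The other 6 libraries, from the same animals after 24 h of interleukin 4 (IL-4), shared in the estimate of the spread and serve as a second stimulus. The labels call the genotype LDHA KO and name neither the allele nor a Cre driver, and they give no age, sex or strain.

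IFN-gamma binds its receptor on the macrophage surface, and the kinases JAK1 and JAK2 then signal to the nucleus, where IRF1 and other regulators are switched on. The genes that follow include guanylate-binding proteins, antigen presentation machinery, chemokines and the nitric oxide synthase Nos2, a programme known as classical activation, while genes of resting, lipid-handling and tissue-remodelling macrophages are turned down. Classically activated macrophages also shift to glycolysis, and lactate dehydrogenase A, the product of Ldha, converts the pyruvate made there to lactate.

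Between 20.1 M and 42.2 M reads per library were assigned to genes in the 12 libraries. Values are the authors' normalized counts, which compare libraries within a gene and not genes with each other. WT IFN-gamma replicate 1 stood apart from its group: the chi-square per gene between this library and the other 2 was 61.1 and 67.4, against 4.72 between those 2 and 11.6 to 38.5 within the other 3 groups. Counts and medians over gene lists that move by more than 1.5 times without it are given both ways. Among the genes named, the calls of Ldha, Lyz2, Ocstamp, Ciita, Hsd17b7, Pvr, Spi1, Atf3, Nr4a2 and Klf2 were lost without it, with limma adjusted p of 0.0556 (Ocstamp) to 0.108 (Nr4a2). Replicates are separate animals by their codes. In bulk libraries, fewer cells of a type and less RNA per cell cannot be told apart.

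Ldha (chr7:46841475-46855627, GRCm38) was far lower in KO than in WT with and without IFN-gamma, and rose with IFN-gamma in both. It had 9189.6, 9315 and 10124 normalized counts in KO cells with IFN-gamma and 2128, 2261 and 2591 untreated. WT cells had 36752, 38896 and 36197 with IFN-gamma and 12204, 11939 and 10712 untreated. The log2 response was 2.04 in KO and 1.68 in WT, a difference of 0.36 ± 0.11 (SE) that passed narrowly (limma, adjusted p = 0.0466) and was lost in 9 of 12 fits with 1 library left out, with an adjusted p of up to 0.128. A second transcript also tracked the genotype label: the lysozyme gene Lyz2, a standard macrophage product, had 190.5, 173 and 204 normalized counts in KO cells with IFN-gamma and 689, 873 and 790.4 untreated. WT cells had 232226, 223896 and 200017 with IFN-gamma and 700319, 622865 and 571538 untreated. It fell with IFN-gamma in both genotypes and further in KO (difference in response -0.51 ± 0.14, adjusted p = 0.0339), a call lost in 8 of 12 fits with 1 library left out, with an adjusted p of up to 0.102. Ldhb, which encodes the other main lactate dehydrogenase chain, fell in both genotypes, and its difference in response was 0.13 ± 0.25 (adjusted p = 0.808).

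A difference in response was called for 1307 of the 14288 genes tested (9.15%; limma, adjusted p under 0.05). The response was higher in KO for 615 genes (4.3%) and lower in KO for 692 (4.84%), and 418 of these differed by at least 1 on the log2 scale, 234 of them higher and 184 lower. Over all genes tested the median difference was -0.0013, the median absolute difference 0.264 and the median SE 0.201. Across genes, which are not independent replicates, KO and WT responses correlated at r = 0.912 (Spearman rho 0.847), with an SD of 1.35 in KO and 1.47 in WT. Left out in turn, single libraries changed the number called to between 760 and 1251, and without WT IFN-gamma replicate 1 it was 1233, 603 higher and 630 lower. Fewest were called without untreated WT replicate 2 (377 higher, 383 lower), then without untreated KO replicate 3 (806), untreated WT replicate 3 (839) and untreated KO replicate 2 (849). Because the 2 libraries of an animal are paired, a fit with the animal as a block called 2073 genes, 973 higher and 1100 lower.

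**Figure D1:**
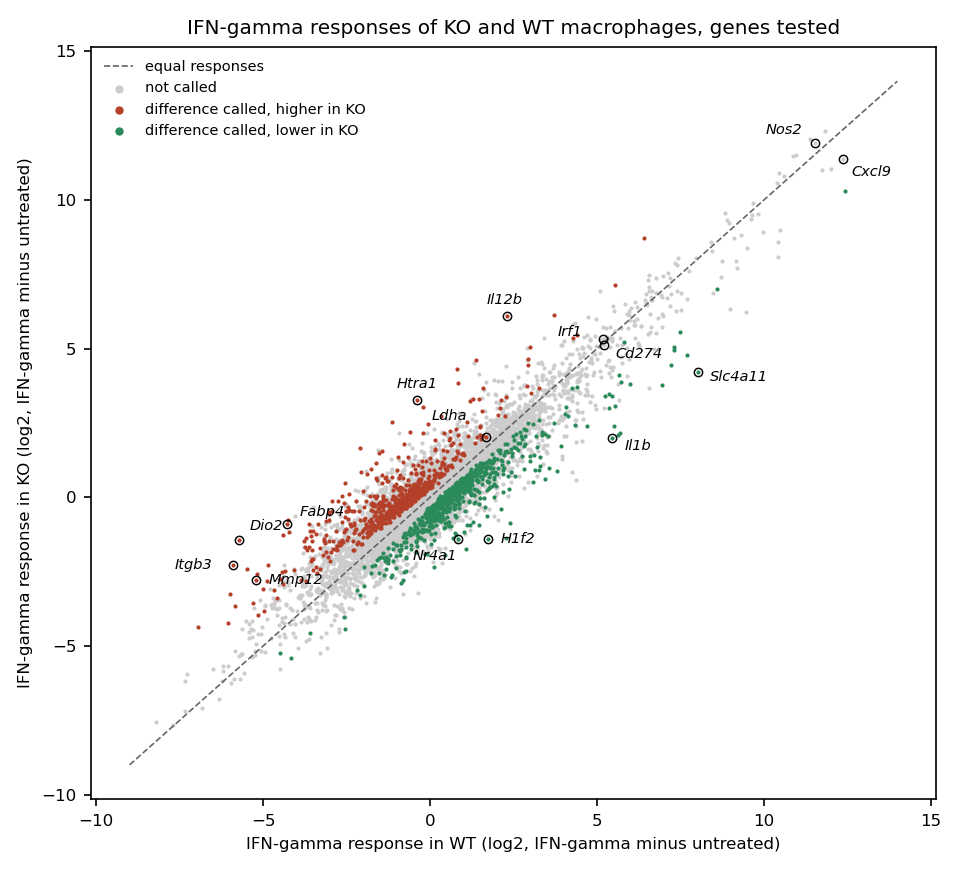
IFN-gamma response of each gene tested in KO (vertical axis) against that in WT (horizontal axis), both as log2 IFN-gamma minus untreated, with equal responses on the dashed line. Genes called higher in KO (615) and lower in KO (692) are coloured, and open circles mark genes named in the text. Irf1 and Nos2 lie -0.062 and 0.39 from the line, while Dio2, Itgb3, Htra1 and Il12b lie above it and Slc4a11, Il1b and H1f2 below it.

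In each direction, the largest class of called genes moved the same way in both genotypes and less far in KO, and this class held under 40% of the calls. Of the 615 genes higher in KO, 232 (37.7%) fell with IFN-gamma in both genotypes and 184 (29.9%) fell in WT without passing the test in KO. Of the 692 genes lower in KO, 273 (39.5%) rose in both genotypes and 179 (25.9%) rose in WT without passing in KO. Other called genes responded further in KO. Among genes higher in KO, 75 (12.2%) rose in both genotypes and 83 (13.5%) rose in KO without passing in WT, and among genes lower in KO, 87 (12.6%) fell in both and 105 (15.2%) fell in KO without passing in WT. In opposite directions, 40 genes rose in KO and fell in WT, and 48 fell in KO and rose in WT. IFN-gamma responses were called for 7970 genes in KO (55.8%; 28.3% higher, 27.5% lower) and 8922 in WT (62.4%; 31.4% higher, 31.1% lower). They use the same libraries as the difference and describe its shape only. Responses of single KO animals did not overlap those of WT animals for 1304 of the 1307 called genes, against 38.1% of all genes (18.4% higher, 19.7% lower). The called genes were picked on the same libraries, so the first count follows largely from that choice and is no separate support.

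**Figure D2:**
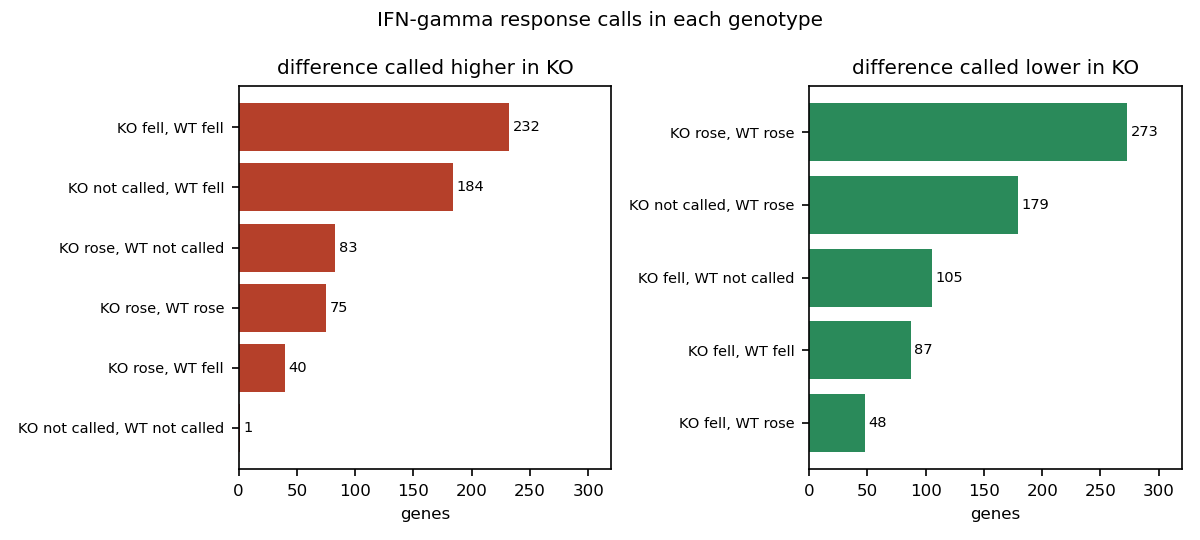
Number of genes with a called difference in response, by whether the gene rose, fell or did not pass the test with IFN-gamma in KO and in WT, for genes higher in KO (left) and lower in KO (right). The longest bars are genes that fell in both genotypes (232, left) and genes that rose in both (273, right).

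Genes were also sorted by the mean response of both genotypes, which favours neither. Among 4926 genes (34.5%) whose mean response rose, 122 (2.48%) had a higher and 424 (8.61%) a lower response in KO, with a median difference of -0.10. Among 5011 genes (35.1%) whose mean response fell, 388 (7.74%) were higher and 165 (3.29%) lower, with a median of 0.11. Among 4351 genes with no called mean response, 105 were higher and 103 lower. For a list whose genes mostly rose or mostly fell, these shares are a closer background than those of all genes.

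The interferon markers Irf1, Nos2, Cxcl9, Acod1 and Cd274 rose in both genotypes, and no difference in response was called for these 5. Irf1, the transcription factor that relays much of the response, had 46745, 45810.4 and 47191 normalized counts in KO cells with IFN-gamma and 1189.6, 1431 and 1360.3 untreated. WT cells had 65763, 54001 and 53048 with IFN-gamma and 1621, 1596 and 1467 untreated. Its difference in response was -0.062 ± 0.15 (adjusted p = 0.86), an estimate whose sign turned positive, to at most 0.037, in 4 of the alternatives. Nos2 had 188812, 159653 and 168029.6 normalized counts in KO cells with IFN-gamma and 53.4, 36.4 and 40.8 untreated. WT cells had 132459, 119531 and 111980.3 with IFN-gamma and 41.9, 38.8 and 38.2 untreated, a difference in response of 0.39 ± 0.35 (adjusted p = 0.558). With IFN-gamma, every KO library lay below every WT library for Irf1 and above every WT library for Nos2. Untreated, every KO library likewise lay below every WT library for Irf1, while the groups overlapped for Nos2. For the other markers, the estimates were -1.01 ± 1.06 for the T-cell attractant Cxcl9, -0.32 ± 0.29 for Acod1, which makes itaconate, and 0.16 ± 0.27 for Cd274, which encodes PD-L1, and the smallest adjusted p of these was 0.558. A p that misses the threshold does not show equal responses.

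Within the receptor and signalling list, 5 of 20 genes tested had a lower response in KO and none a higher one, with a median of -0.25 (all genes tested: 9.15% called, median -0.0013). Ifngr1, the ligand-binding chain of the receptor, had 2558, 2762 and 2752 normalized counts in KO cells with IFN-gamma and 5674, 6477 and 6170.2 untreated. WT cells had 5435, 4727 and 4652 with IFN-gamma and 6817, 6941 and 6812 untreated. It fell in both genotypes and further in KO (-0.70 ± 0.12, adjusted p = 0.00134), and under IFN-gamma the 3 KO libraries lay below all 3 WT libraries. The untreated KO libraries also lay below the untreated WT ones, a difference that did not pass (limma, adjusted p = 0.461). Irf8, a factor that works with Irf1 at macrophage genes, rose in both but less in KO (-0.59 ± 0.098, adjusted p = 0.00107), with 32106, 29258 and 30268 normalized counts in KO cells with IFN-gamma and 5991, 6649.5 and 6341 untreated. WT cells had 54516, 48996 and 49307 with IFN-gamma and 6942, 7132 and 6871 untreated. Irf2, which competes with Irf1 for its sites, also rose less in KO (-0.49 ± 0.13, adjusted p = 0.0239), a call lost in 5 of 12 fits with 1 library left out (adjusted p up to 0.0724). The feedback inhibitor Socs1 did not pass (-0.79 ± 0.28, adjusted p = 0.0861) and passed with the animal as a block (adjusted p = 0.022).

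The guanylate-binding proteins and immunity-related GTPases, which attack vacuoles of intracellular pathogens, rose in all 18 genes tested in both genotypes. The response differed in 1 of 18, where 9.15% of all genes tested differed. The 1 gene was Gbp2b, with 3286, 5491 and 4859 normalized counts in KO cells with IFN-gamma and 2.72, 1.73 and 3.27 untreated. WT cells had 8172, 11737 and 11114 with IFN-gamma and 2.92, 0 and 0.659 untreated. The response was lower in KO by -2.11 ± 0.51 (adjusted p = 0.0151). Under IFN-gamma every KO library lay below every WT library, while the untreated values rest on a few reads, and edgeR's test on reads did not call the gene (adjusted p = 0.198). Its neighbour Gbp2, added after its values were seen, had 222279.6, 234454 and 223973 normalized counts in KO cells with IFN-gamma and 227178, 248587 and 227598 in WT cells with IFN-gamma, and its difference in response was 0.28 ± 0.24 (adjusted p = 0.526), with the opposite sign (-0.29) after quantile normalization. Gbp genes are near copies of each other, so reads may be split between them.

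Promoter sequences are shown to set these loci beside the factors that drive the response. The windows run from 250 bases before to 50 bases after the RefSeq start (GRCm38.p6), and both strands were searched for TTCNNNGAA, a STAT site, and for the IRF site in which GAAA returns after 2 free bases. The patterns can overlap. Shares are of genes with the pattern in at least 1 of their windows. Of tested genes with a window (10227 of 14288), 8.19% held the first pattern and 4.02% the second. Among the 10 guanylate-binding protein and GTPase genes with a window, 6 held the first and 10 the second. Irf1 carries the STAT pattern 90 bases before its start, and Gbp2b and Gbp2 carry the IRF pattern 137 and 59 bases before theirs. The matches are in capitals, read 5′ to 3′ on the strand of the gene, and for Irf1 1 of 2 windows is shown.
Irf1 (chr11:53769764-53770063, + strand): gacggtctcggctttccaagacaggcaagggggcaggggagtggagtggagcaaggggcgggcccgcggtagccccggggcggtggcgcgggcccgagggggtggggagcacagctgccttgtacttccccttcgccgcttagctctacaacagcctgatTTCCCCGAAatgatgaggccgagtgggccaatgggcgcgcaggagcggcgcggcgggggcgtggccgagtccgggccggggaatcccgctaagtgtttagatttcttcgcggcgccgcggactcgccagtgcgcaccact
Gbp2b (chr3:142594597-142594896, + strand): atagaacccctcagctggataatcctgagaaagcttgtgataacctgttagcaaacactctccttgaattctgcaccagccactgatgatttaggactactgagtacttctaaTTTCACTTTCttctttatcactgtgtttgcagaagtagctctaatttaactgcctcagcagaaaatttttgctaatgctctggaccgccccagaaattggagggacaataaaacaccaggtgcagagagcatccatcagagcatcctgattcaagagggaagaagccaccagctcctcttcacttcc
Gbp2 (chr3:142620413-142620712, + strand): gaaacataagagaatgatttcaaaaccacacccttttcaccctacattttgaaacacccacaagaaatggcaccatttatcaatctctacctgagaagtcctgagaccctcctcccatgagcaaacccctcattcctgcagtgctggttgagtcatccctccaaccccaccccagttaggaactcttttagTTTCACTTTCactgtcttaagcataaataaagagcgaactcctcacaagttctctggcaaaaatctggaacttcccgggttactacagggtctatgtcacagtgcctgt
Among genes with a called difference and a window, the STAT pattern stood in 5.05% of genes higher in KO and 7.41% of those lower in KO. The IRF pattern stood in 2.95% and 4.44%. Gbp2b and Gbp2 thus both hold the IRF pattern, and the response differed in 1 of them. A match is a description of letters in a window and no evidence that a factor binds.

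All 20 genes of MHC class I presentation rose in both genotypes, and 2 of them had a higher response in KO, where 4.3% of all genes did and 9.15% differed in either direction: Erap1, the peptidase that trims peptides for class I (0.73 ± 0.15, adjusted p = 0.0065), and Tapbpl, a peptide editor (0.42 ± 0.12, adjusted p = 0.0374; lost in 9 of 12 fits with 1 library left out, adjusted p up to 0.0958). Erap1 had 7553, 8079 and 7756 normalized counts in KO cells with IFN-gamma and 3529, 3551 and 3582 untreated. WT cells had 4034, 5429 and 5314 with IFN-gamma and 3574, 3490.2 and 4004 untreated. Of 14 MHC class II genes, Ciita, the master activator of the class, responded more in KO (1.08 ± 0.31, adjusted p = 0.0348; lost in 8 of 12 fits with 1 library left out, among them that without WT IFN-gamma replicate 1 with an adjusted p of 0.0778). It had 10017, 10313 and 8532 normalized counts in KO cells with IFN-gamma and 194, 268 and 189 untreated. WT cells had 4795, 6405 and 5876 with IFN-gamma and 306, 284 and 220 untreated. The class II list had a median of -0.23, with 1 gene higher and 3 lower with the animal as a block. Without WT IFN-gamma replicate 1 the median was -0.053 and none of its genes was called. All 28 type I interferon-stimulated antiviral genes rose in both genotypes and no difference was called, with a median of -0.084 (-0.14 without WT IFN-gamma replicate 1). Of 21 chemokines, the neutrophil attractant Cxcl3 was higher (2.67 ± 0.56, adjusted p = 0.00634), on counts of 2.36 to 53.9, and Ccl9 lower (-0.74 ± 0.15, adjusted p = 0.00497). Without WT IFN-gamma replicate 1, 1 chemokine gene was higher and 3 were lower, with a median of -0.29 against -0.053 with all libraries.

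**Figure D3:**
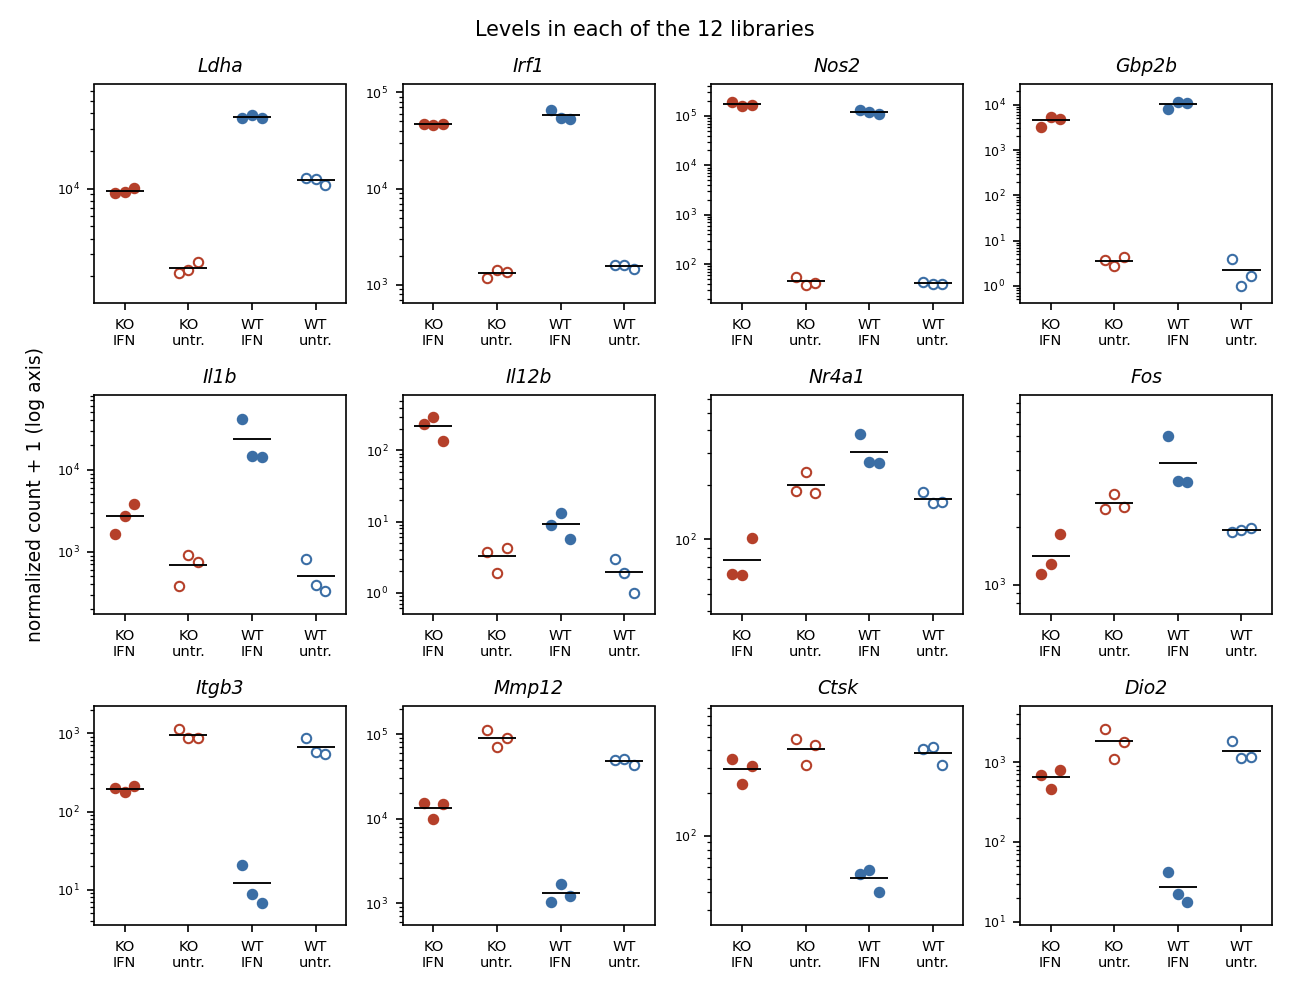
Normalized counts plus 1 (log axis) of 12 genes in each of the 12 libraries, with KO libraries in red left of WT libraries in blue, filled with IFN-gamma (IFN) and open when untreated (untr.). Lines are group means of 3 animals. With IFN-gamma, the KO libraries lie below the WT libraries for Irf1, Il1b and Fos. They lie above them for Nos2, Itgb3, Mmp12, Ctsk and Dio2. Untreated, the KO libraries lie below the WT libraries for Irf1 and above them for Mmp12 and Fos. The untreated groups overlap for Nos2, Il1b, Itgb3, Ctsk and Dio2.

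Among cytokines, 2 genes of the IL-1 family responded less in KO. Il1b (chr2:129364570-129371139), which encodes a fever-inducing cytokine released after inflammasome cleavage, had 1626.9, 2764 and 3862 normalized counts in KO cells with IFN-gamma and 386, 916 and 744 untreated. WT cells had 42080, 14746 and 14349.7 with IFN-gamma and 805, 395 and 332 untreated. The untreated groups overlapped, and every KO library with IFN-gamma lay below every WT library with IFN-gamma. Within animals the log2 response of Il1b was 2.07, 1.59 and 2.38 in KO and 5.71, 5.22 and 5.43 in WT, and the difference was -3.44 ± 0.83 (adjusted p = 0.0144). WT replicate 1 was the highest of all, and without that IFN-gamma library the difference was -2.93 (adjusted p = 0.0351). Il18, whose product makes T and NK cells secrete IFN-gamma, had 175, 187 and 204 normalized counts in KO cells with IFN-gamma and 99.6, 165 and 162 untreated. WT cells had 871, 759.8 and 725 with IFN-gamma and 244, 196 and 183 untreated. It rose in WT and did not pass in KO, a difference of -1.48 ± 0.28 (adjusted p = 0.00285).

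Il12b went the other way. The gene, which encodes the p40 chain shared by IL-12 and IL-23, had 235, 296 and 133 normalized counts in KO cells with IFN-gamma and 2.72, 0.866 and 3.27 untreated. WT cells had 7.86, 12.4 and 4.72 with IFN-gamma and 1.95, 0.902 and 0 untreated. All 3 KO libraries with IFN-gamma were above all others, and the difference in response was 3.79 ± 0.87 (adjusted p = 0.0112). The untreated values rest on single reads, and edgeR did not call the difference (adjusted p = 0.219), nor did a pseudocount of 0.5 (adjusted p = 0.0598). In all, 1 of 18 cytokine genes tested was higher and 2 were lower, against 4.3% and 4.84% of all genes.

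Of 17 sensors and effectors of inflammasome and cell death signalling, 4 had a lower response in KO and none a higher one (4.84% and 4.3% of all genes), with a median of -0.24. Nlrp3, the sensor that assembles the inflammasome, had 3277, 3467 and 3486 normalized counts in KO cells with IFN-gamma and 1915, 2216 and 2274 untreated. WT cells had 6319.8, 5950 and 6409 with IFN-gamma and 1879, 1783 and 1876 untreated. Its difference was -1.07 ± 0.17 (adjusted p = 0.000904). The necroptosis kinase Ripk3 differed by -1.06 ± 0.15 (adjusted p = 0.000264) and the apical caspase Casp8 by -0.42 ± 0.11 (adjusted p = 0.0174; lost in 3 of 12 fits with 1 library left out, adjusted p up to 0.0575). Of the NF-kB subunits and feedback genes, 4 of 17 were lower and none higher, against 4.84% and 4.3% of all genes. There were 8 lower and 1 higher with the animal as a block, and 3 lower and 1 higher without WT IFN-gamma replicate 1. The NF-kB subunit gene Rel had 1955, 2658 and 2487 normalized counts in KO cells with IFN-gamma and 1898, 2165 and 1942 untreated. WT cells had 5313, 4986 and 5299 with IFN-gamma and 1949.5, 1993 and 2116 untreated, so that it rose in WT and did not pass in KO (-1.13 ± 0.21, adjusted p = 0.00281). Nfkbie, an NF-kB inhibitor that NF-kB itself induces, differed by -1.46 ± 0.15 (adjusted p = 3.24e-05) and Tnip3, another inhibitor of the pathway, by -0.93 ± 0.13 (adjusted p = 0.000337).

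Of the 38 gene lists, that of immediate early genes had the largest share of called genes. These are genes that growth factors, stress and cytokines switch on within minutes through kinase signalling. Of 24 tested, 13 had a lower response in KO and none a higher one (4.84% and 4.3% of all genes), with a median of -0.78 against -0.0013 over all genes, and 20 of the 24 estimates were negative. Without WT IFN-gamma replicate 1, in which several of these genes were highest, 10 were lower and the median was -0.69. Fos, a subunit of the AP-1 factor, fell in KO and rose in WT: it had 1143, 1283 and 1838 normalized counts in KO cells with IFN-gamma and 2505, 2977 and 2556 untreated. WT cells had 6021, 3487 and 3456 with IFN-gamma and 1892, 1929.6 and 1990.4 untreated. The difference was -2.05 ± 0.26 (adjusted p = 0.000116), and -1.78 without WT IFN-gamma replicate 1 (adjusted p = 4.36e-05). The orphan nuclear receptor gene Nr4a1 likewise fell in KO and rose in WT, with 63.2, 62.3 and 101 normalized counts in KO cells with IFN-gamma and 184, 236 and 179 untreated. WT cells had 379, 266 and 263 with IFN-gamma and 181, 157 and 160 untreated (-2.26 ± 0.28, adjusted p = 8.66e-05). Its relative Nr4a3 rose in both and less in KO (-3.54 ± 0.62, adjusted p = 0.00173), at levels of 24.7 to 157 with IFN-gamma and under 8 untreated. Btg2, an antiproliferative gene, showed tight values, with 1144, 1288 and 1246 normalized counts in KO cells with IFN-gamma and 1953, 2194 and 2106 untreated. WT cells had 2038, 2073 and 2084 with IFN-gamma and 1717, 1773 and 1849 untreated (-0.98 ± 0.11, adjusted p = 3.42e-05).

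The remaining lower immediate early genes, named because the whole list is of interest and not by the naming rule, were Fosl2 (-1.62), Zfp36 (-1.14), Dusp1 (-1.09), Ier3 (-1.04), Ier2 (-0.81), Junb (-0.92), Atf3 (-0.45), Nr4a2 (-2.03) and Klf2 (-0.75), each a log2 difference in response. Fosl2, Junb and Atf3 encode AP-1 family factors, and Dusp1 and Zfp36 encode the MAP kinase phosphatase and the mRNA-destabilizing protein that end inflammatory signalling. Of these 9, 4 passed narrowly: Junb, Atf3, Nr4a2 and Klf2 lost the call in 8 of 12, 7 of 12, 9 of 12 and 9 of 12 fits with 1 library left out, with adjusted p up to 0.0795, 0.0905, 0.126 and 0.136 in that order. Egr1, which is also in the list, gave 0.83 ± 0.60 (adjusted p = 0.434). A promoter pattern that cyclic AMP and calcium signals use, TGACGTCA, was added to the search after the values were seen. Among genes with a window, it stood in 3 of the 20 immediate early genes and in 5.74% of genes lower in KO. The shares were 3.58% of genes higher in KO and 3.48% of all tested. The Btg2 window carries it 166 bases before the start, and so does that of Dio2, a gene with a higher response in KO, 95 bases before its start.
Btg2 (chr1:134079106-134079405, - strand): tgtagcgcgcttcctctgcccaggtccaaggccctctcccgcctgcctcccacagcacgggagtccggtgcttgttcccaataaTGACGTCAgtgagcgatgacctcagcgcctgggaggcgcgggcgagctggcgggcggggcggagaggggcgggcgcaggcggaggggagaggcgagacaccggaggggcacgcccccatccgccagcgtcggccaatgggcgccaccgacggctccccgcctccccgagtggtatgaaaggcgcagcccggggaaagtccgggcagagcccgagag
Dio2 (chr12:90738989-90739288, - strand): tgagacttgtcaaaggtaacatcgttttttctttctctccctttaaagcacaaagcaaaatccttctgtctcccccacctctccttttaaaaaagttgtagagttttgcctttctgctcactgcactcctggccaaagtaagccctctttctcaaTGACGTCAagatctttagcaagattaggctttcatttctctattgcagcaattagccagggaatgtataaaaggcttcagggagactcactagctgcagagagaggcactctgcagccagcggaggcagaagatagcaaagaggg

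**Figure D4:**
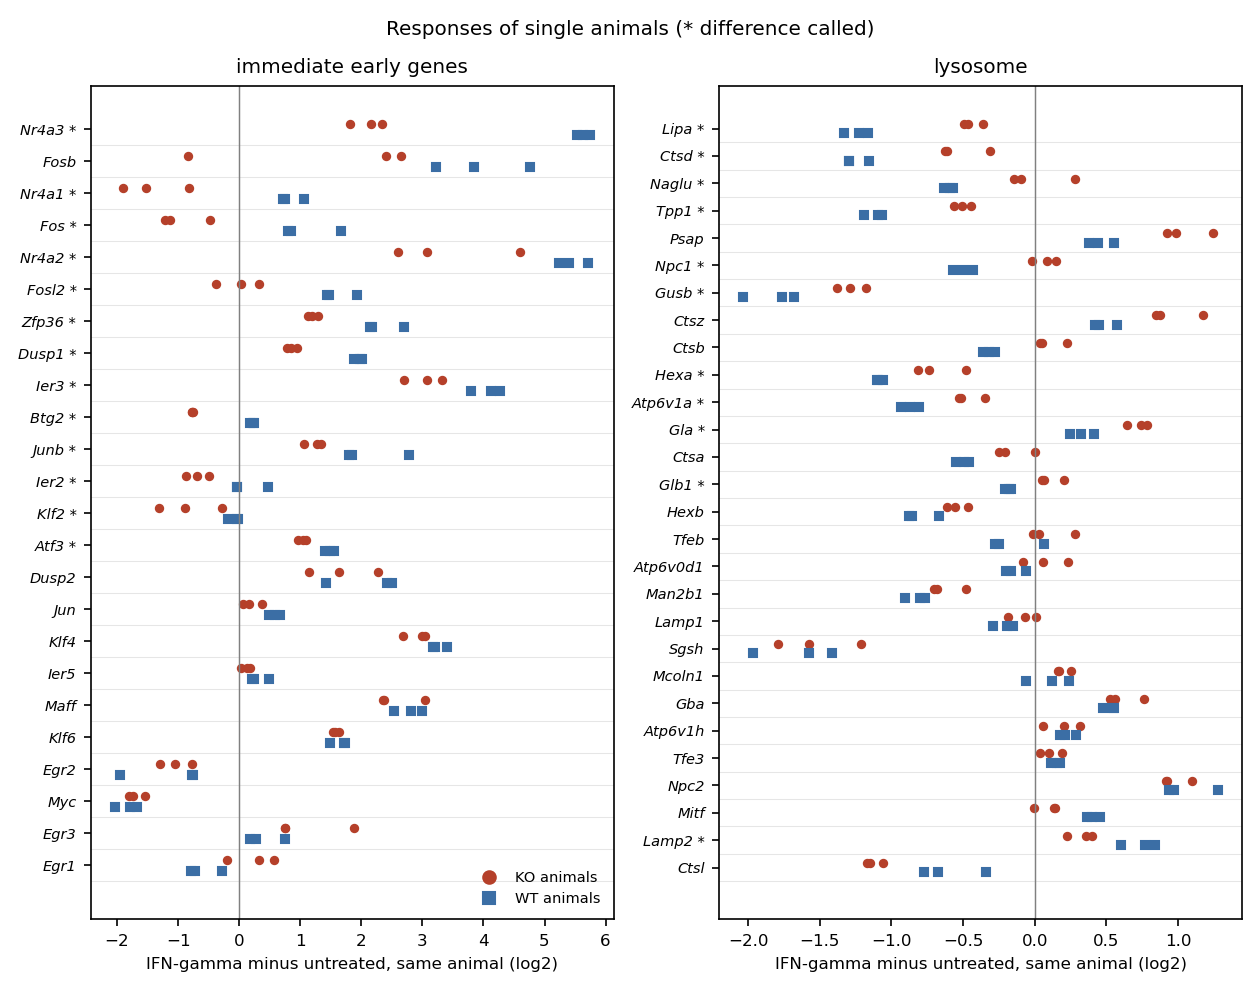
Log2 IFN-gamma response (IFN-gamma minus untreated of the same animal) of each immediate early gene (left) tested and of 28 of the 29 lysosome genes tested (right), with the 3 KO animals as circles above the 3 WT animals as squares. Stars mark called differences (13 lower on the left, 10 higher and 1 lower on the right). For Fos and Nr4a1 the KO animals lie below 0 and the WT animals above it, and Lipa, Ctsd and Tpp1 fall in both with the KO animals nearer 0.

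Genes that fell steeply with IFN-gamma in WT and less in KO included Dio2, Itgb3, Ctsk and Mmp12. Dio2 (chr12:90724552-90738438), which encodes the deiodinase that activates thyroid hormone, had 692, 461 and 786 normalized counts in KO cells with IFN-gamma and 2580.1, 1086 and 1809 untreated. WT cells had 41.2, 21.4 and 16.5 with IFN-gamma and 1831, 1135 and 1145 untreated. The untreated groups overlapped, and with IFN-gamma the lowest KO library was above the highest WT library. Its difference in response, 4.27 ± 0.50 (adjusted p = 6.41e-05), was the largest by the naming rule. Itgb3 (chr11:104608000-104670476), the integrin chain with which osteoclasts attach to bone, had 199, 175 and 212 normalized counts in KO cells with IFN-gamma and 1132, 857 and 867 untreated. WT cells had 19.6, 7.89 and 5.9 with IFN-gamma and 877, 573 and 537 untreated (3.63 ± 0.39, adjusted p = 3.42e-05). Ctsk, the collagen-degrading cathepsin of osteoclasts, had 348, 230.3 and 312 normalized counts in KO cells with IFN-gamma and 479.8, 316 and 439 untreated. WT cells had 53, 56.4 and 38.9 with IFN-gamma and 411, 424 and 316 untreated (2.47 ± 0.28, adjusted p = 4.12e-05). Both fell in WT to a small part of their untreated level, and in KO Ctsk kept most of it.

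Of 11 osteoclast and cell fusion genes tested, 4 were higher and none lower (4.3% and 4.84% of all genes), with a median of 0.89 (0.60 without WT IFN-gamma replicate 1). Beside Itgb3 and Ctsk these were Src and Ocstamp, which IFN-gamma raised: the kinase gene Src rose more in KO (0.91 ± 0.23, adjusted p = 0.0216; lost in 3 of 12 fits with 1 library left out, adjusted p up to 0.0628), and the fusion gene Ocstamp, listed at 0 in all untreated KO libraries, had 546, 479.7 and 295 normalized counts in KO cells with IFN-gamma against 82.5, 144 and 180.4 in WT cells with it. The Ocstamp call (adjusted p = 0.0236) was lost in edgeR (adjusted p = 0.263) and in 4 of 12 fits with 1 library left out. In the matrix list 4 of 24 genes were higher and 1 lower. Mmp12, the macrophage elastase, had 15396, 9783 and 14794 normalized counts in KO cells with IFN-gamma and 111802, 70079 and 90297 untreated. WT cells had 1047, 1706 and 1203 with IFN-gamma and 49609.5, 51084 and 42684 untreated (2.44 ± 0.30, adjusted p = 8.66e-05). It was higher in KO than in WT in both conditions, and the gap was wider with IFN-gamma. Htra1, a secreted protease, rose in KO and did not pass in WT: it had 452, 275 and 387 normalized counts in KO cells with IFN-gamma and 37.1, 40.7 and 32.7 untreated. WT cells had 46.2, 9.02 and 17.7 with IFN-gamma and 38, 20.8 and 21.7 untreated (3.65 ± 0.70, adjusted p = 0.00318). Itgax, which encodes CD11c, fell in WT and did not pass in KO (1.36 ± 0.33, adjusted p = 0.0158).

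Of 17 LXR and lipid storage genes, 5 were higher and none lower, against 4.3% and 4.84% of all genes. The list had a median of 0.042, or -0.069 without WT IFN-gamma replicate 1. Fabp4, a fatty acid carrier of macrophages and fat cells, had 857, 694 and 1151 normalized counts in KO cells with IFN-gamma and 1744, 1452 and 1754 untreated. WT cells had 248, 125 and 87.3 with IFN-gamma and 2973, 2959 and 2378 untreated (3.40 ± 0.37, adjusted p = 3.46e-05). Its untreated KO libraries lay below the untreated WT ones, and the order was turned round with IFN-gamma. Fabp5 behaved likewise (1.67 ± 0.16, adjusted p = 1.83e-05), and Soat1, which esterifies cholesterol for storage, fell by 0.26 in KO and 1.02 in WT (0.76 ± 0.091, adjusted p = 7.47e-05). Of 27 sterol and fatty acid synthesis genes, 17 fell in KO and 20 in WT, 3 were higher in KO and none lower, with a median of 0.25 (7 higher and 1 lower with the animal as a block, and 2 higher and none lower without WT IFN-gamma replicate 1). Among all genes whose mean response fell, 7.74% were higher in KO, with a median of 0.11. Among those that fell by at least 1 on the log2 scale, 9.63% were higher, with a median of 0.24. Part of the shift of this list is thus shared by falling genes. Fasn, the fatty acid synthase, had 1048, 874 and 697 normalized counts in KO cells with IFN-gamma and 2944, 2190.5 and 1969 untreated. WT cells had 335, 484 and 489 with IFN-gamma and 2551, 2707 and 2821 untreated (1.21 ± 0.25, adjusted p = 0.00561). The sterol enzyme genes Lss (0.65 ± 0.16, adjusted p = 0.0166) and Hsd17b7 (0.73 ± 0.20, adjusted p = 0.0299) lost their calls in 3 of 12 and 8 of 12 fits with 1 library left out, adjusted p up to 0.052 and 0.0895.

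Lysosome genes, which encode the acid hydrolases and membrane proteins of the degradative compartment, had a higher response in KO for 11 of 29 and a lower one for 1, against 4.3% and 4.84% of all genes tested, with a median of 0.29 (9 higher and none lower without WT IFN-gamma replicate 1, median 0.34). The differences were small and tight. Lipa, the acid lipase that frees cholesterol from lipoproteins, had 47459, 45135 and 44357 normalized counts in KO cells with IFN-gamma and 60931, 62404 and 62394 untreated. WT cells had 20724, 24963 and 25543 with IFN-gamma and 52038, 55868 and 59736 untreated (0.80 ± 0.13, adjusted p = 0.000764). Within animals its log2 response was -0.36, -0.47 and -0.49 in KO and -1.33, -1.16 and -1.23 in WT. The peptidase Tpp1 differed by 0.61 ± 0.093 (adjusted p = 0.000541) and the protease Ctsd, named after its values were seen, by 0.74 ± 0.17 (adjusted p = 0.0118). Of 21 phagocytic and scavenger receptor genes, 2 were higher and 2 lower (2 and 3 without WT IFN-gamma replicate 1). Trem2, a lipid receptor, had 1241, 736 and 944 normalized counts in KO cells with IFN-gamma and 4144, 3985 and 3848 untreated. WT cells had 405, 318 and 358 with IFN-gamma and 3835, 4347 and 3956 untreated (1.42 ± 0.21, adjusted p = 0.000368). The scavenger receptor Stab1 was also higher (1.43 ± 0.20, adjusted p = 0.000316), and Clec4n, which encodes the fungal receptor dectin-2, rose in WT and did not pass in KO (-2.08 ± 0.43, adjusted p = 0.00555).

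**Figure D5:**
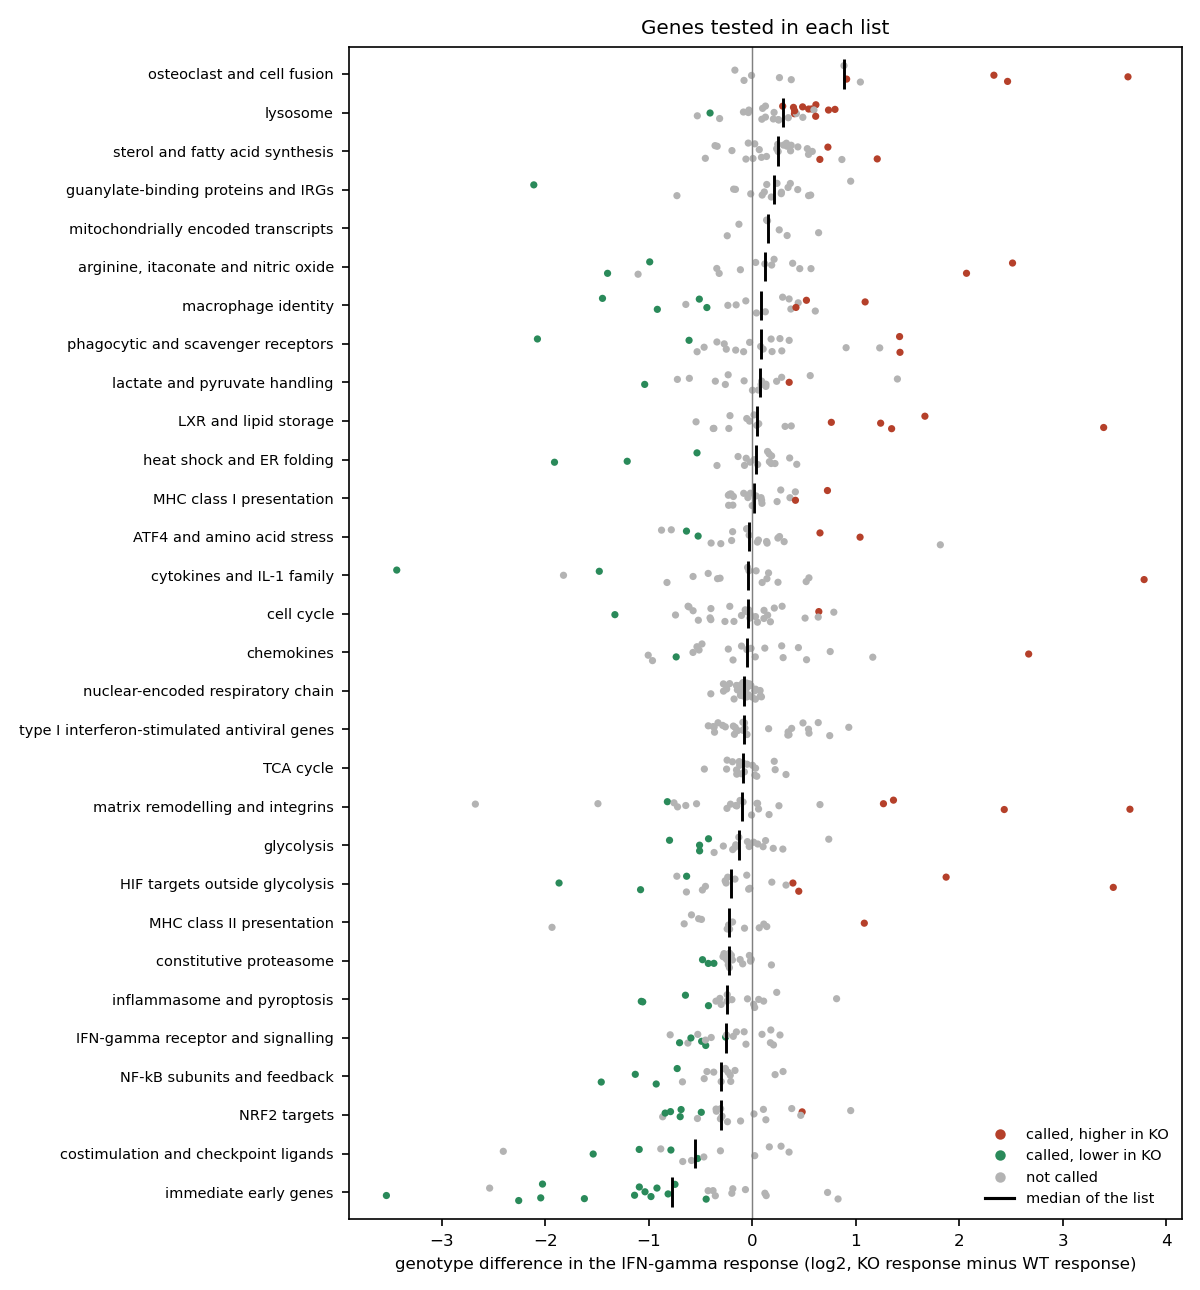
Difference in IFN-gamma response (log2, KO response minus WT response) of every gene tested in each of 30 gene lists, 1 row per list ordered by its median (black line). Red points were called higher and green points lower in KO. The osteoclast and lysosome lists lie at the top and the costimulation and immediate early lists at the bottom, with medians of 0.89, 0.29, -0.56 and -0.78.

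Of 19 glycolysis genes, the pathway that feeds lactate dehydrogenase, 14 rose and 4 fell in KO while 15 rose and 3 fell in WT. The response was lower in KO for 4 of the 19 and higher for none (4.84% and 4.3% of all genes), with a median of -0.13 (2 higher and 3 lower without WT IFN-gamma replicate 1). Among all genes whose mean response rose, 8.61% were lower in KO, with a median of -0.10. Pfkp, a chain of phosphofructokinase, had 25569.9, 25201 and 23039.7 normalized counts in KO cells with IFN-gamma and 7264, 6319 and 7331 untreated. WT cells had 30164, 33862 and 33086 with IFN-gamma and 5719.8, 5159 and 4907 untreated (-0.80 ± 0.11, adjusted p = 0.000262). Its untreated level was already higher in KO, a difference called for 1.46% of genes in this direction and 0.525% in the other. With IFN-gamma, KO was called higher for 14.3% and lower for 13.6% of genes. Pgk1 was higher in untreated KO than untreated WT cells and did not pass between genotypes with IFN-gamma (limma, adjusted p = 0.595). Its difference in response was -0.51 ± 0.12 (adjusted p = 0.0147). That of Pfkm was -0.51 ± 0.13 (adjusted p = 0.0221, lost in 3 of 12 fits with 1 library left out, adjusted p up to 0.0678). Hif1a, the hypoxia-inducible factor that drives glycolysis genes, had 10767, 13562 and 13806 normalized counts in KO cells with IFN-gamma and 3714, 3556 and 4158 untreated. WT cells had 25744, 21815 and 21853 with IFN-gamma and 3468, 3012 and 3377 untreated (-1.08 ± 0.23, adjusted p = 0.00633). Epas1, which encodes the related HIF-2 alpha, fell in both and less in KO (1.87 ± 0.39, adjusted p = 0.00555). In that list of HIF targets outside glycolysis 4 of 20 were higher and 3 lower. In the lactate and pyruvate list, Ldha was higher and Gpd2, which carries glycolytic electrons into mitochondria, was lower (-1.04 ± 0.25, adjusted p = 0.016), out of 18 tested (Gpd2 alone was called without WT IFN-gamma replicate 1).

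No difference was called among 19 TCA cycle, 33 nuclear-encoded respiratory chain and 7 mitochondrially encoded genes, whose medians were -0.092, -0.079 and 0.15 (edgeR also called none). Without WT IFN-gamma replicate 1 the medians of the last 2 lists were -0.042 and -0.076, and none of the genes of the 3 lists was called. In the arginine and nitric oxide list, 2 of 15 were higher and 2 lower, against 4.3% and 4.84% of all genes. Slc7a2, the transporter that brings in arginine, rose more in KO, with 2612, 1825 and 2392 normalized counts in KO cells with IFN-gamma and 77, 65.8 and 58 untreated. WT cells had 1775, 909.7 and 525 with IFN-gamma and 134, 152 and 80.3 untreated (2.07 ± 0.45, adjusted p = 0.00799). The arginine-recycling enzyme Ass1 was higher in untreated KO cells than in untreated WT cells and rose less in KO (-1.40 ± 0.36, adjusted p = 0.0227; lost in 4 of 12 fits with 1 library left out, adjusted p up to 0.0675). The polyamine enzyme Odc1 also rose less (-0.99 ± 0.25, adjusted p = 0.0198; lost in 2 of 12 fits with 1 library left out, adjusted p up to 0.0573).

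Among NRF2 targets, genes of the antioxidant defence, 5 of 21 were lower and 1 higher, against 4.84% and 4.3% of all genes. The median was -0.31 (9 lower and 2 higher with the animal as a block). Several started from a higher level in KO. Prdx1, a peroxidase, had 235477, 228751 and 252954 normalized counts in KO cells with IFN-gamma and 62450.3, 54533 and 67443 untreated. WT cells had 189618, 170382 and 155314 with IFN-gamma and 25288, 25899.9 and 24908 untreated (-0.79 ± 0.16, adjusted p = 0.00518), so it was higher in KO in both conditions and by less with IFN-gamma. Txnrd1, thioredoxin reductase, and G6pdx, which makes NADPH, were higher in untreated KO than in untreated WT cells and did not pass between genotypes with IFN-gamma. Their differences in response were -0.84 ± 0.17 (adjusted p = 0.00392) and -0.49 ± 0.095 (adjusted p = 0.00336). The heat shock genes Hspa1b (-1.91 ± 0.34, adjusted p = 0.00201) and Hspa1a (-1.21 ± 0.27, adjusted p = 0.0101), near copies that may share reads, had the same shape. Hspa8, the constant form of the chaperone, rose in both and less in KO (-0.54 ± 0.12, adjusted p = 0.0119), and 3 of 18 genes of that list were lower and none higher.

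The constitutive proteasome showed a small shift, with 19 of 20 estimates negative, a median of -0.23, 3 called lower and none higher. Over all genes, 4.84% were lower and 4.3% higher. Among all genes whose mean response rose, 8.61% were lower, with a median of -0.10, so part of this shift is shared by rising genes. All 20 genes rose in both genotypes. The subunit gene Psmc1 had 5688, 5820.5 and 5489 normalized counts in KO cells with IFN-gamma and 3318, 3261 and 3225 untreated. WT cells had 6392, 6374 and 6189.6 with IFN-gamma and 2800, 2758 and 2584 untreated (-0.43 ± 0.08, adjusted p = 0.0029), and Psma1 and Psma6 differed by -0.37 ± 0.077 and -0.48 ± 0.11 (adjusted p = 0.00573 and 0.0128). In the ATF4 and amino acid stress list 2 of 21 were higher and 2 lower, against 4.3% and 4.84% of all genes. They were led by the stress factor Atf5 (1.04 ± 0.18, adjusted p = 0.00179), the mitochondrial folate enzyme Mthfd2 (-0.52 ± 0.12, adjusted p = 0.01) and the amino acid transporter Slc38a2 (0.65 ± 0.18, adjusted p = 0.0286, lost in 6 of 12 fits with 1 library left out, adjusted p up to 0.082). Most cell cycle genes fell in both genotypes (28 of 31 in each). Of the 31, 1 was higher and 1 lower, against the same shares of all genes. These were the replication licensing genes Cdt1 (0.64 ± 0.13, adjusted p = 0.00615) and Cdc6 (-1.33 ± 0.33, adjusted p = 0.017, lost in 2 of 12 fits with 1 library left out, adjusted p up to 0.0519).

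Costimulation and checkpoint ligands, through which macrophages instruct T cells, were lower in 4 of 14 genes and higher in none (4.84% and 4.3% of all genes). The median was -0.56 (2 lower without WT IFN-gamma replicate 1, median -0.47). Vsir, which encodes the inhibitory ligand VISTA, had 4456, 4575 and 4646 normalized counts in KO cells with IFN-gamma and 11757, 13899 and 13509.6 untreated. WT cells had 9316, 9954 and 10314 with IFN-gamma and 13554, 13327 and 12682 untreated. The untreated groups overlapped, it fell in both, and it fell further in KO (-1.09 ± 0.10, adjusted p = 1.14e-05). Cd80, the ligand of CD28 and CTLA-4, rose in WT and did not pass in KO, with 92.5, 129.9 and 156 normalized counts in KO cells with IFN-gamma and 121, 107 and 154 untreated. WT cells had 592, 354 and 341 with IFN-gamma and 196, 124 and 126 untreated (-1.54 ± 0.37, adjusted p = 0.014, or 0.032 without WT IFN-gamma replicate 1). Pvr, the ligand of TIGIT, gave -0.53 ± 0.15 (adjusted p = 0.0346; lost in 7 of 12 fits with 1 library left out, adjusted p up to 0.101).

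Several of the largest differences lay outside these lists. Slc4a11, a membrane transporter gene, rose in both genotypes but had 154, 219.9 and 324 normalized counts in KO cells with IFN-gamma and 7.24, 12.1 and 15.5 untreated. WT cells had 1695, 942 and 929 with IFN-gamma and 6.82, 2.71 and 1.98 untreated (-3.81 ± 0.66, adjusted p = 0.00161). H1f2, a linker histone gene, fell in KO and rose in WT, with 812, 644 and 1115 normalized counts in KO cells with IFN-gamma and 2067, 2338 and 2254 untreated. WT cells had 10961, 3835 and 3475 with IFN-gamma and 1724, 1539 and 1478 untreated (-3.15 ± 0.43, adjusted p = 0.00022, and -2.62 without WT IFN-gamma replicate 1). Both were highest in WT IFN-gamma replicate 1. Stat4, the signal transducer used by IL-12, rose in WT and did not pass in KO (-2.51 ± 0.48, adjusted p = 0.00342), with 86.1, 144 and 212 normalized counts in KO cells with IFN-gamma and 146, 211 and 188 untreated. WT cells had 1014, 449 and 413 with IFN-gamma and 144, 106 and 143 untreated. Plbd1, a phospholipase-like gene, showed tight values, with 2041, 2302 and 1701 normalized counts in KO cells with IFN-gamma and 63.4, 64.1 and 62.9 untreated. WT cells had 3459, 4403 and 3748 with IFN-gamma and 25.3, 25.3 and 19.8 untreated (-2.35 ± 0.31, adjusted p = 0.000144). It was higher in KO before and lower in KO after IFN-gamma. The activating receptor gene Cd226, listed at 0 in all untreated WT libraries, had 19.2, 17.3 and 12.2 normalized counts in KO cells with IFN-gamma and 106, 129.6 and 138 in WT cells with IFN-gamma, and was not called in edgeR (adjusted p = 0.196).

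The other lower genes named by size were Gja1 (-2.84), Chrm3 (-2.74), Fam43a (-2.48), Glipr2 (-2.46), Cass4 (-2.39) and Tspoap1 (-2.34), each a log2 difference in response, with adjusted p from 8.66e-05 (Cass4) to 0.0198 (Chrm3). Chrm3 differed between genotypes before IFN-gamma, on 9.8 to 15.4 normalized counts in KO and 0 to 3.9 in WT, and not after it. Its call was lost in 1 of 12 fits with a library left out, that without untreated KO replicate 1 (adjusted p = 0.0502). Among genes higher in KO, Olfr111, an olfactory receptor gene, was steady across animals, with 288, 312 and 244 normalized counts in KO cells with IFN-gamma and 664, 709 and 536 untreated. WT cells had 33.4, 36.1 and 40.1 with IFN-gamma and 692, 647 and 772 untreated (3.06 ± 0.27, adjusted p = 7.57e-06). H2-M2, a non-classical MHC class I gene, rose in KO and did not pass in WT, with 4199, 3464 and 2969.9 normalized counts in KO cells with IFN-gamma and 1086, 1126 and 821 untreated. WT cells had 821, 531 and 319.6 with IFN-gamma and 1444, 839 and 569.7 untreated (2.58 ± 0.49, adjusted p = 0.00333). The MAP kinase phosphatase gene Dusp9 (3.08), Spsb4 (2.80), the lipase gene Lipn (2.53) and the coagulation factor gene F10 (2.41) completed this group, with Nat8l. Dusp9 had 1.18 to 2.95 normalized counts in WT cells with IFN-gamma. Nat8l was listed at 0 in all WT libraries with IFN-gamma and at 2.75, 0 and 3.48 normalized counts in KO cells with IFN-gamma. F10 was not called in edgeR or DESeq2 (adjusted p = 0.0623 and 0.0536). F10 and Nat8l lost their calls in 9 of 12 and 5 of 12 fits with 1 library left out, with adjusted p up to 0.0962 and 0.0647.

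Almost no genotype difference in the IL-4 response was called: 1 of 14288 genes (0.007%, limma), the unnamed model Gm6192. At an unadjusted limma p under 0.05 there were 774 genes, while edgeR called 1 and DESeq2 21. Replicates with IL-4 spread widely, with a chi-square per gene of 46.8 to 66.3 within WT and 26.7 to 60.1 within KO. WT IL-4 replicate 2 had 9.77 M reads. The part of spread and depth in the low count was not tested. Both stimuli were read against the same untreated libraries, so they were compared directly, as KO minus WT with IFN-gamma less KO minus WT with IL-4, where the untreated libraries cancel. That difference was called for 822 genes (5.75%), 447 positive (3.13%) and 375 negative (2.62%), and for 1555 with the animal as a block. For Itgb3 it was 3.78 ± 0.39 (adjusted p = 3.86e-05) and for Fabp4 3.10 ± 0.37 (adjusted p = 0.000152), with genotype differences in the IL-4 response of -0.15 and 0.30. For Btg2 it was -0.78 ± 0.11 (adjusted p = 0.00038) and for Nfkbie -1.07 ± 0.15 (adjusted p = 0.000538), against IL-4 values of -0.20 and -0.39. For other genes the 2 stimuli were not told apart: Il1b gave -1.73 ± 0.83 (adjusted p = 0.238), with an IL-4 value of -1.71, and Gbp2b -0.87 ± 0.51 (adjusted p = 0.348). Nos2, with no called difference in the IFN-gamma response, differed here (-1.80 ± 0.35, adjusted p = 0.00602), with an IL-4 value of 2.19.

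Markers of the macrophage and of other cells were read beside these results. Over all genes, 4.3% were called higher and 4.84% lower. The 18 macrophage identity genes held 3 higher and 4 lower calls (1 and 1 without WT IFN-gamma replicate 1), with a median of 0.082, or 0.0039 without that library. Itgam, which encodes CD11b, fell in KO and did not pass in WT (-0.92 ± 0.16, adjusted p = 0.00193), the lectin gene Cd33 fell in both and less in KO (1.09 ± 0.23, adjusted p = 0.00609), and Spi1, the lineage factor PU.1, gave -0.44 ± 0.12 (adjusted p = 0.0331; lost in 10 of 12 fits with 1 library left out, adjusted p up to 0.0823). Of 9 monocyte markers 1 was called, Ccr2 (-2.05 ± 0.51, adjusted p = 0.0187, lost in 4 of 12 fits with 1 library left out, adjusted p up to 0.0585). The list as a whole leaned lower in KO, with 8 of 9 estimates negative and a median of -0.80 (-1.81 in edgeR). The summed level of the 9 markers was 1394 to 1499 in KO cells with IFN-gamma and 4891 to 5394 in untreated KO cells. It was 1099 to 1648 in WT cells with IFN-gamma and 3200.2 to 3654 in untreated WT cells. Of 10 dendritic cell markers 1 was called, the chemokine receptor gene Xcr1 (-2.91 ± 0.70, adjusted p = 0.0146), with 150.2, 171 and 185 normalized counts in KO cells with IFN-gamma and 4.53, 11.3 and 2.45 untreated. WT cells had 509, 896 and 959 with IFN-gamma and 1.95, 3.61 and 2.63 untreated. The summed level of the 10 markers overlapped between genotypes with IFN-gamma, at 23010.1 to 28365 in KO and 23026 to 24553 in WT. It was 4485 to 5339.9 and 5890.3 to 6026 in untreated KO and WT cells. Bst2 made up most of this sum, with 66904 reads in KO and 58290 in WT libraries with IFN-gamma, so the sum says little about the rest. With IFN-gamma, Clec9a had 1961 reads in KO and 3408 in WT, and Xcr1 476 and 2126. Ccr7 went the other way, with 685 and 301.

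None of the 14 stromal markers differed in response (edgeR also called none), where 9.15% of all genes did. Their summed level was 444 to 1346 in KO cells with IFN-gamma and 691 to 2326 in untreated KO cells. It was 264 to 533 in WT cells with IFN-gamma and 299 to 807 in untreated WT cells. Of 3 neutrophil markers tested 1 was called, S100a8, at 56.8, 26 and 59.1 normalized counts in KO cells with IFN-gamma and 11.8, 8.66 and 23.7 untreated. WT cells had 0, 1.13 and 1.18 with IFN-gamma and 7.79, 4.51 and 6.59 untreated (3.75 ± 0.67, adjusted p = 0.00206). The granule genes Ltf, Ngp and Camp had at most 8 reads in any group of 3 libraries. No T and NK (3 tested), B and plasma (2), mast and basophil (2) or erythroid and megakaryocyte (2) marker differed, and edgeR called none of them. The part of these cells in the results was not tested.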

How the data were processed

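Gene expression was measured by RNA sequencing of poly(A) RNA with a directional kit on a NextSeq500, per the labels. Reads were aligned with STAR 2.5 to GRCm38 and counted with HTSeq 0.6, per the submitters' processing notes, which also name DESeq2 and edgeR; how strand was set in counting was not recorded in these sources, so overlapping genes are uncertain. Values in the deposited table are a signal in normalized counts, read counts the authors divided by 1 size factor per library. Whole reads were recovered for 100% of the values checked (tolerance 0.1). The highest values were rounded to whole reads without that check. FPKM values, which the labels mention, were not used, nor were the authors' own log2 fold changes and adjusted p-values in the deposited table, whose comparison is not named.

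Here, genes that reached 10 normalized counts in 3 or more of the 18 libraries were kept, and log2(normalized count + 1) was fitted with limma 3.58.1 (R 4.3.3), 6 group means, a trended prior (12 residual degrees of freedom) and two-sided tests, adjusted by Benjamini and Hochberg over 14288 genes and called under 0.05. Fold changes are on that scale, which understates low genes. The pipeline was tested on simulated data. The members and the 38 gene lists (715 genes, 641 tested) were chosen with earlier results of these data known. Named genes were Ldha, Lyz2 and Ldhb, up to 15 higher and 15 lower by size among called genes with a group mean of at least 100 and no overlap of single-animal responses, up to 3 called genes per list by adjusted p, and 6 interferon markers (3 further genes so chosen are not reported here); immediate early genes beyond 3, Gbp2 and Ctsd were added after their values were seen, and Egr1 was named in the same way.

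Libraries of one animal carry the same code in the labels, which pairs them. Residuals of the IFN-gamma and untreated libraries of an animal correlated across genes at r = 0.0316 to 0.228. Alternatives were pseudocounts of 0.5 and 5, no filter, a mean of at least 50, TMM-type, median-of-ratios and quantile scaling, edgeR 4.0.16 and DESeq2 1.42.0 on recovered reads, the 12 libraries alone, the animal as fixed or random block, and single libraries or (chosen after seeing the data) single animals left out. RefSeq promoter windows (GRCm38.p6) were matched by symbol.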

Additional observations from a re-analysis of the deposited data

Results flagged for a closer look

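Of the 111 genes named, 103 were marked for a closer look because the difference between the KO and the WT response, tested directly, passed (limma, adjusted p under 0.05). Values are log2 differences in response, KO minus WT. The list follows from the naming rule, so its size says nothing about the share of all genes that differ, which was 9.15%.

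The response was higher in KO for 39 of them. The widest gaps were at Dio2 (4.27), Il12b (3.79), S100a8 (3.75), Htra1 (3.65), Itgb3 (3.63), Fabp4 (3.40), Dusp9 (3.08) and Olfr111 (3.06). Next came Spsb4 (2.80), Cxcl3 (2.67), Nat8l (2.59), H2-M2 (2.58), Lipn (2.53), Ctsk (2.47), Mmp12 (2.44) and F10 (2.41). These were followed by Ocstamp (2.33), Slc7a2 (2.07), Epas1 (1.87), Fabp5 (1.67), Stab1 (1.43), Trem2 (1.42), Itgax (1.36) and Fasn (1.21). Smaller gaps were found at Cd33 (1.09), Ciita (1.08), Atf5 (1.04), Src (0.91), Lipa (0.80), Soat1 (0.76), Ctsd (0.74) and Erap1 (0.73). The smallest higher values were those of Hsd17b7 (0.73), Lss (0.65), Slc38a2 (0.65), Cdt1 (0.64), Tpp1 (0.61), Tapbpl (0.42) and Ldha (0.36).

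The response was lower in KO for 64. At the far end stood Slc4a11 (-3.81), Nr4a3 (-3.54), Il1b (-3.44), Cd226 (-3.18), H1f2 (-3.15), Xcr1 (-2.91), Gja1 (-2.84), Chrm3 (-2.74) and Stat4 (-2.51). Next lower were Fam43a (-2.48), Glipr2 (-2.46), Cass4 (-2.39), Plbd1 (-2.35), Tspoap1 (-2.34), Nr4a1 (-2.26), Gbp2b (-2.11), Clec4n (-2.08) and Fos (-2.05). The next group held Ccr2 (-2.05), Nr4a2 (-2.03), Hspa1b (-1.91), Fosl2 (-1.62), Cd80 (-1.54), Il18 (-1.48), Nfkbie (-1.46) and Ass1 (-1.40). Then followed Cdc6 (-1.33), Hspa1a (-1.21), Zfp36 (-1.14), Rel (-1.13), Vsir (-1.09), Dusp1 (-1.09), Hif1a (-1.08), Nlrp3 (-1.07) and Ripk3 (-1.06). Further lower responses were those of Gpd2 (-1.04), Ier3 (-1.04), Odc1 (-0.99), Btg2 (-0.98), Tnip3 (-0.93), Itgam (-0.92), Junb (-0.92), Txnrd1 (-0.84) and Ier2 (-0.81). Somewhat smaller were Pfkp (-0.80), Prdx1 (-0.79), Klf2 (-0.75), Ccl9 (-0.74), Ifngr1 (-0.70), Irf8 (-0.59), Hspa8 (-0.54), Pvr (-0.53) and Mthfd2 (-0.52). More modest values belonged to Lyz2 (-0.51), Pgk1 (-0.51), Pfkm (-0.51), Irf2 (-0.49), G6pdx (-0.49), Psma6 (-0.48), Atf3 (-0.45), Spi1 (-0.44) and Psmc1 (-0.43). The smallest lower values were at Casp8 (-0.42) and Psma1 (-0.37).

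The gap of a single library to the others was not tested gene by gene, since that criterion applies to groups of 4 or more. WT IFN-gamma replicate 1 stood apart from its group over all genes, as described with the depths.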

How the results depend on the processing

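The number of genes called for the difference in IFN-gamma response was between 1134 and 1934 in the other settings and reached 2073 with the animal as a fixed replicate block (973 higher, 1100 lower in KO); lower genes numbered 1044 in a fit of the 12 libraries alone. With a library or an animal left out, which also leaves fewer samples, it was 629 to 1251, 301 to 623 higher and 311 to 630 lower. KO against WT in untreated cells (283 called) gave 608 in DESeq2, 485 in the 12 libraries alone and 124 to 369 with a library left out. The IL-4 difference (1 called) gave 12 with the fixed and 4 with the random block, 21 in DESeq2, 3 with a pseudocount of 5, 2 without a filter, 2 after quantile normalization and 1 to 2 with a library left out. The IFN-gamma minus IL-4 difference (822 called) gave 1555 with the fixed and 1432 with the random block, 1265 in DESeq2 and 486 to 860 with a library left out, the lowest without KO IFN-gamma replicate 1. The cause of these shifts was not tested. Each response on its own, their mean and KO against WT with IFN-gamma stayed within 1.5 times their count in every setting run.

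Among 111 named genes, 3323 values were computed under alternatives: 2986 kept direction and side of the threshold, 327 lost it, 4 gained it and 6 changed sign. These 6 were at genes with no called difference: Irf1 after quantile normalization (0.037), without WT IFN-gamma replicate 1 (0.037), without KO animal 2 (0.0064) and without WT animal 1 (0.0091), its range with a library or animal left out being -0.14 to 0.037; Ldhb without KO animal 2 (-0.030; range -0.030 to 0.27), and Gbp2 after quantile normalization (-0.29). Of 103 called named genes, 77 kept the call with any single library left out and 75 in every setting other than those leaving out an animal. The replicate block changed 1 other call, that of Socs1. Groups of 3 animals limit precision. Il12b, Gbp2b, Cd226 and Ocstamp rest on a few reads in at least 1 group. So do Dusp9, Nat8l and S100a8 (WT with IFN-gamma) and Chrm3, Nr4a3, Xcr1 and Slc4a11 (untreated WT), among others. The size of such differences leans on the pseudocount. Of the called named genes, edgeR did not call Il12b, Gbp2b, Cd226, Ocstamp, Ldha, Lyz2, F10 and Nr4a2 (adjusted p from 0.0519 for Ldha to 0.263 for Ocstamp). DESeq2 did not call Gbp2b, F10 and Cd226 (adjusted p = 0.0516, 0.0536 and 0.108) and gave no adjusted p for S100a8.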
